A study of Mus musculus with 6 samples.

Results

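The Slc25 family holds the carriers that move metabolites, nucleotides, cofactors and ions across the inner mitochondrial membrane. Its members were taken as the gene names in the table that start with Slc25a, without the citrate carrier Slc25a1 and the carnitine carrier Slc25a20. This rule gave 24 genes of 8690 distinct gene names. It goes by name alone, but it was set with earlier results of these data known and reaches only names in the table. RNA was sequenced from the aortas of 6 aged mice of strain C57BL/6. The 3 wild-type samples (WT) are replicates 2, 4 and 8, and the 3 samples without the deacetylase gene Sirt2 (Sirt2-KO) are replicates 4, 7 and 8. Neither the age of the mice nor how Sirt2 was deleted is given in the sources used here, and all the mice share the strain. The comparison asks what loss of Sirt2 does to gene expression in the aged vessel.

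Each Slc25 carrier is a small protein built from repeats of a common unit, and most exchange one solute for another. Adenine nucleotide and phosphate carriers supply the ATP synthase and export its product. Other members link the cytosol and the matrix through dicarboxylates, amino acids and cofactors, so that their levels differ with the metabolism of a tissue. Fat, heart muscle and smooth muscle each use a different mixture of them, and an aorta dissected with the fat around it can hold all of these.

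Values were deposited as FPKM (fragment counts divided by transcript length and by the library's total), so that levels can be set beside each other between genes. The rows of a gene were added up. The 24 members came from 40 rows, 1 row each for 14 genes and up to 4 rows for the other 10. The table had 14083 rows and no row with a variance over the 6 samples under 1, so steady low transcripts were missing and the sum of a gene may not cover all its transcripts. A further 22 names of the family in the list of substrates were not analysed here, and the 24 members are therefore not a complete set of carriers. All 24 had a mean of at least 1 FPKM and were tested. Column sums of 367746 to 396901 FPKM cover only the listed rows, and depth is unknown. Sirt2 stood at 26.5, 34.1 and 49.2 FPKM in the WT aortas and 2.56, 3.32 and 2.23 FPKM in Sirt2-KO, which fits the labels of all 6 samples.

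Of the 24 carriers, 1 rose in Sirt2-KO and 0 fell, by limma on log2(FPKM + 1) with p-values adjusted by Benjamini-Hochberg across the 8605 genes tested and called under 0.05. The gene that rose was Slc25a10, the dicarboxylate carrier. Without WT replicate 4 the count was 2, with Slc25a44 added. In the same comparison 2.91% of all tested genes passed, 2.29% higher and 0.616% lower. These 250 genes became 28 without Sirt2-KO replicate 7, 29 without Sirt2-KO replicate 8, 71 without WT replicate 2 and 150 without WT replicate 8, while 1 member passed in each case. An unadjusted p under 0.05 was reached by 6 members, 4 higher and 2 lower, where 24.8% of all tested genes reached it. WT and Sirt2-KO values did not overlap in 7 members, 4 higher and 3 lower, against 33.3% of all tested genes (16% higher and 17.3% lower). The shares of the family by unadjusted p and by overlap are close to the background. The median log2 difference of the members was -0.01, beside -0.08 over all tested genes, with 11 members above and 13 below 0.

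**Figure D1:**
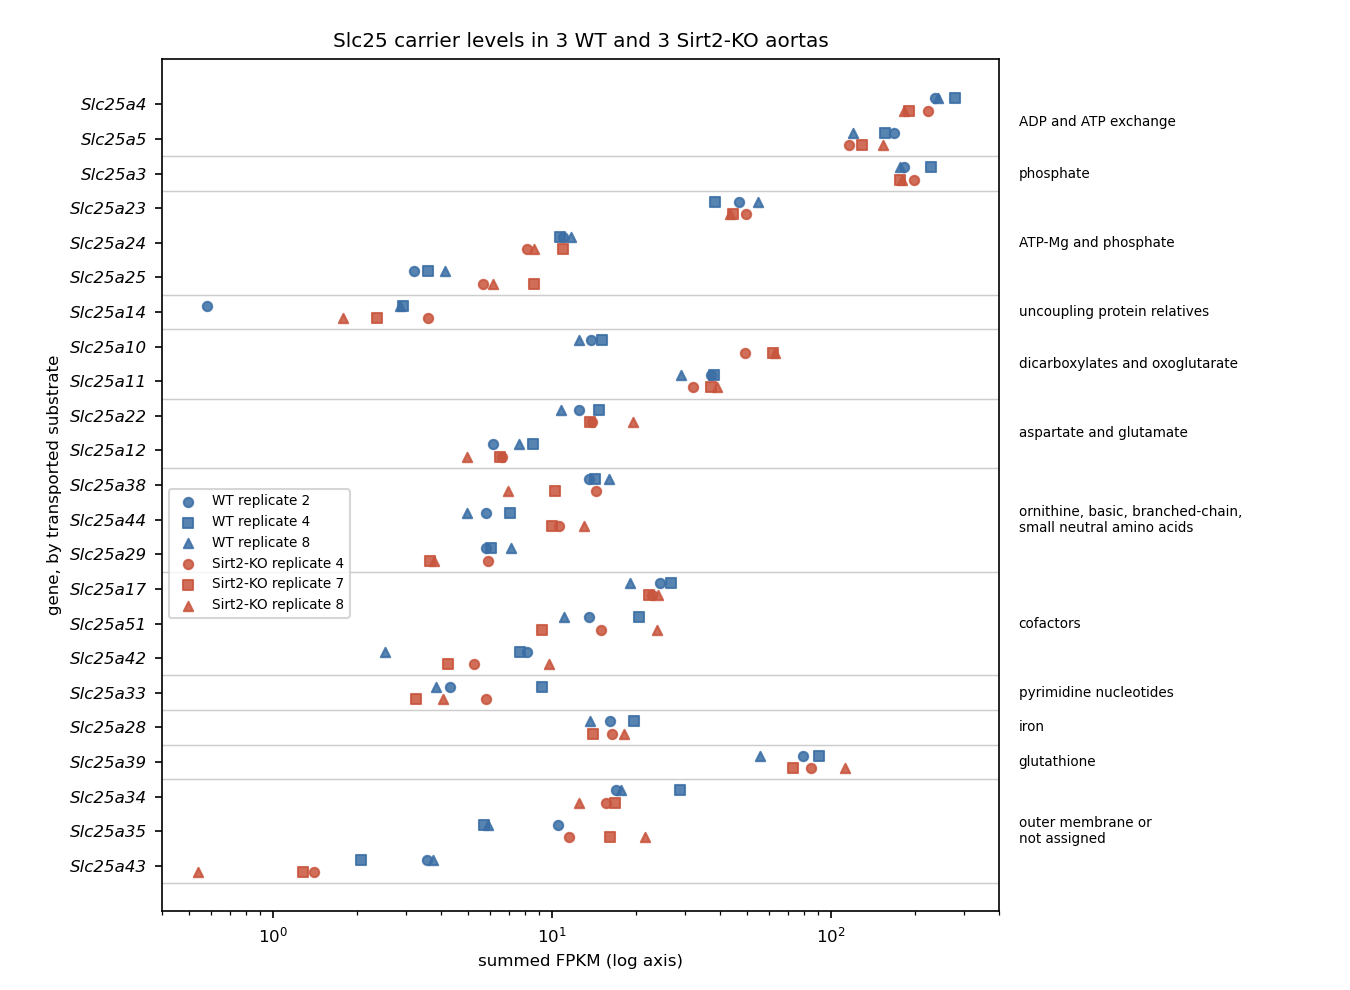
Summed FPKM (log axis) of 23 of the 24 Slc25 carriers in each of the 3 WT (blue) and 3 Sirt2-KO (red) aortas, ordered by transported substrate; each point is 1 aorta. Slc25a4, Slc25a3 and Slc25a5 stand above 100 FPKM in every aorta, and Slc25a10 is the member whose groups lie farthest apart.

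Slc25a10 exchanges malate and succinate for phosphate across the inner membrane, and white fat is known for high levels of it. Slc25a10 stood at 13.8, 15.2 and 12.5 FPKM in WT replicates 2, 4 and 8. In Sirt2-KO replicates 4, 7 and 8 it stood at 49.3, 62.05 and 63.2 FPKM. The lowest Sirt2-KO aorta was thus far above the highest WT aorta. The means were 58.2 ± 7.69 and 13.8 ± 1.34 FPKM (SD, n = 3 each), a 4.21-fold rise. On the log2(FPKM + 1) scale Slc25a10 differed by 1.99 (SE 0.141, limma adjusted p = 0.00156), and by p the gene was number 10 of the 8605. The exact two-sided permutation test over the 6 aortas gave p = 0.1, the smallest that 3 against 3 allows.

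Both rows of Slc25a10 were higher in every Sirt2-KO aorta. The larger row had 13.0, 14.1 and 11.9 FPKM in the WT aortas, against 45.4, 47.8 and 59.7 FPKM in Sirt2-KO. The smaller row had 0.796, 1.04 and 0.567 FPKM in the WT aortas and 3.92, 14.2 and 3.44 FPKM in Sirt2-KO, so that replicate 7 stood apart in it. Among the WT aortas this row varied far less than the table's least variance of 1, so it is listed only through its Sirt2-KO values. The smaller row is therefore no separate support for the rise. With only the larger row the log2 difference of Slc25a10 was 1.88 (adjusted p = 0.00427). Leaving out any 1 aorta gave differences of 1.93 to 2.11, and the largest adjusted p was 0.0182. An antisense gene, Gm11788, shares up to 228 exon bases with Slc25a10 in the GENCODE annotation of GRCm38, and without a stated strand setting reads of the 2 genes cannot be told apart.

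Slc25a11, the carrier that exchanges oxoglutarate for malate, did not share this difference. It stood at 37.3, 38.1 and 28.9 FPKM in the WT aortas, against 31.9, 37.1 and 38.9 FPKM in Sirt2-KO. The groups overlapped, and the log2 difference was 0.05 (95% interval -0.30 to 0.40, adjusted p = 0.827 by limma). In FPKM, the ratio of Slc25a10 to Slc25a11 was 0.370, 0.398 and 0.432 in the WT aortas and 1.54, 1.67 and 1.62 in the Sirt2-KO aortas. The order of these 2 dicarboxylate carriers was therefore opposite in the 2 groups, with Slc25a11 the higher in each WT aorta and Slc25a10 the higher in each Sirt2-KO aorta.

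White fat markers moved in the same direction as Slc25a10. All marker lists were chosen with earlier results of these data known, so their counts are no independent support. The summed level of 11 white adipocyte markers (of 12 listed) was 2747, 2778 and 702 FPKM in the WT aortas and 6483, 5107 and 7689 FPKM in Sirt2-KO, with no marker at 0 in any aorta. All 11 were higher, and 2 passed. WT replicate 8 had the lowest sum and also the lowest Slc25a10, at 12.5 FPKM, against 13.8 and 15.2 FPKM in WT replicates 2 and 4. Markers of other cells were also higher in Sirt2-KO. All 8 fibroblast markers were higher and 4 passed, with sums of 597, 668 and 739 FPKM in the WT aortas, against 1329, 2442 and 2065 FPKM. All 10 macrophage markers were higher and 1 passed, with sums of 99.8 to 239 FPKM in WT, against 309 to 528 FPKM, and all 5 red blood cell markers found (of 7 listed) were higher, with 0 past the threshold by limma and 4 at an unadjusted p under 0.05 (248 to 368 FPKM, against 454 to 1396 FPKM). Of 10 endothelial markers 8 were lower and 0 passed by limma, with 3 at an unadjusted p under 0.05 (387 to 652 FPKM in WT, against 323 to 409 FPKM). Of all tested genes 24.8% reached an unadjusted p under 0.05, and 2.91% passed. No fibroblast, macrophage, red blood cell or endothelial marker was at 0 in any aorta. The part of these cells and of fat in the difference of Slc25a10 was not tested. In whole tissue, more cells of a type and more RNA per cell cannot be told apart.

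The starts of 3 genes are shown to set the carrier that rose beside the members with the smallest p among those that were lower. They run from 250 bases before the transcription start to 50 after it (RefSeq, GRCm38.p6, which is not the mm9 build of the submitters' processing notes). Slc25a10 lies at chr11:120491587-120491886 on the plus strand, Slc25a43 at chrX:36743382-36743681 on the plus strand and Slc25a4 at chr8:46211013-46211312 on the minus strand. Capitals mark a GC box (GGGCGG or CCGCCC) or a CCAAT box (CCAAT or ATTGG).
Slc25a10: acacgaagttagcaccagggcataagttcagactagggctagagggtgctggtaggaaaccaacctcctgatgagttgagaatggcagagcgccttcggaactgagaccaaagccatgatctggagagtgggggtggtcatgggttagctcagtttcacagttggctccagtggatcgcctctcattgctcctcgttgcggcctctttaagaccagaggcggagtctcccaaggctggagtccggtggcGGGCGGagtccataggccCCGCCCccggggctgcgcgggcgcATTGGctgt
Slc25a43: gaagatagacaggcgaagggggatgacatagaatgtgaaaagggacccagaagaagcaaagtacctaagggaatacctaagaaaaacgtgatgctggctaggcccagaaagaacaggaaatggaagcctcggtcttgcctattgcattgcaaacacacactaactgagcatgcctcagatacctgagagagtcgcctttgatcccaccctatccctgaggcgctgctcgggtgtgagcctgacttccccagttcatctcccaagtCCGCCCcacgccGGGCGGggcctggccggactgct
Slc25a4: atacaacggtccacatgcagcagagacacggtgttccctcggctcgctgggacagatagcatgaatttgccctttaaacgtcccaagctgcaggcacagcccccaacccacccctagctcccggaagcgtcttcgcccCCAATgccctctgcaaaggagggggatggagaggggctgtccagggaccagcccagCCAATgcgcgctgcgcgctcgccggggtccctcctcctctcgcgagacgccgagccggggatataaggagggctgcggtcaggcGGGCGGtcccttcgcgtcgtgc
Counting the first listed start of each gene (4 members have several), a GC box on either strand was found in 19 of the 20 members with such a sequence, beside 46.3% of 17492 protein-coding genes. The 20 members were all expressed in these aortas, while the protein-coding genes were not chosen by expression, so the shares compare unlike sets. A CCAAT box was found in 11 of the 20, beside 39.0%, and Slc25a22 held one at another start only. The E-box CACGTG was in 2 of the 20 (7.90% of protein-coding genes). The TATA box TATAAA was in 0 of them (13.3%), and so was the sterol regulatory element TCACNCCAC (1.17%), again on either strand. A reversed CCAAT box can overlap a GC box in its G letters, and CACGTG reads the same on both strands. A match describes these letters only, and its absence says nothing about a factor.

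Among the remaining carriers the smallest p belonged to Slc25a44, which imports branched-chain amino acids and is known from brown fat. Slc25a44 stood at 5.81, 7.08 and 4.94 FPKM in the WT aortas, against 10.6, 10.003 and 13.0 FPKM in Sirt2-KO. The groups did not overlap, with means of 5.95 ± 1.08 and 11.2 ± 1.58 FPKM (SD, n = 3 each). The log2 difference was 0.82 (SE 0.174, 95% interval 0.41 to 1.23) and missed the threshold (adjusted p = 0.0585 by limma). It passed without WT replicate 4 (adjusted p = 0.0497) and with quantile normalization (adjusted p = 0.0444). The smaller of its 2 rows overlapped between the groups when taken alone. Among the WT aortas this row varied far less than the table's least variance of 1, so it is listed only through its Sirt2-KO values. The larger row alone did not overlap, but its log2 difference was 0.76 and did not pass (adjusted p = 0.136 by limma). Among all alternatives the adjusted p of Slc25a44 ranged from 0.0444 to 0.612.

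**Figure D2:**
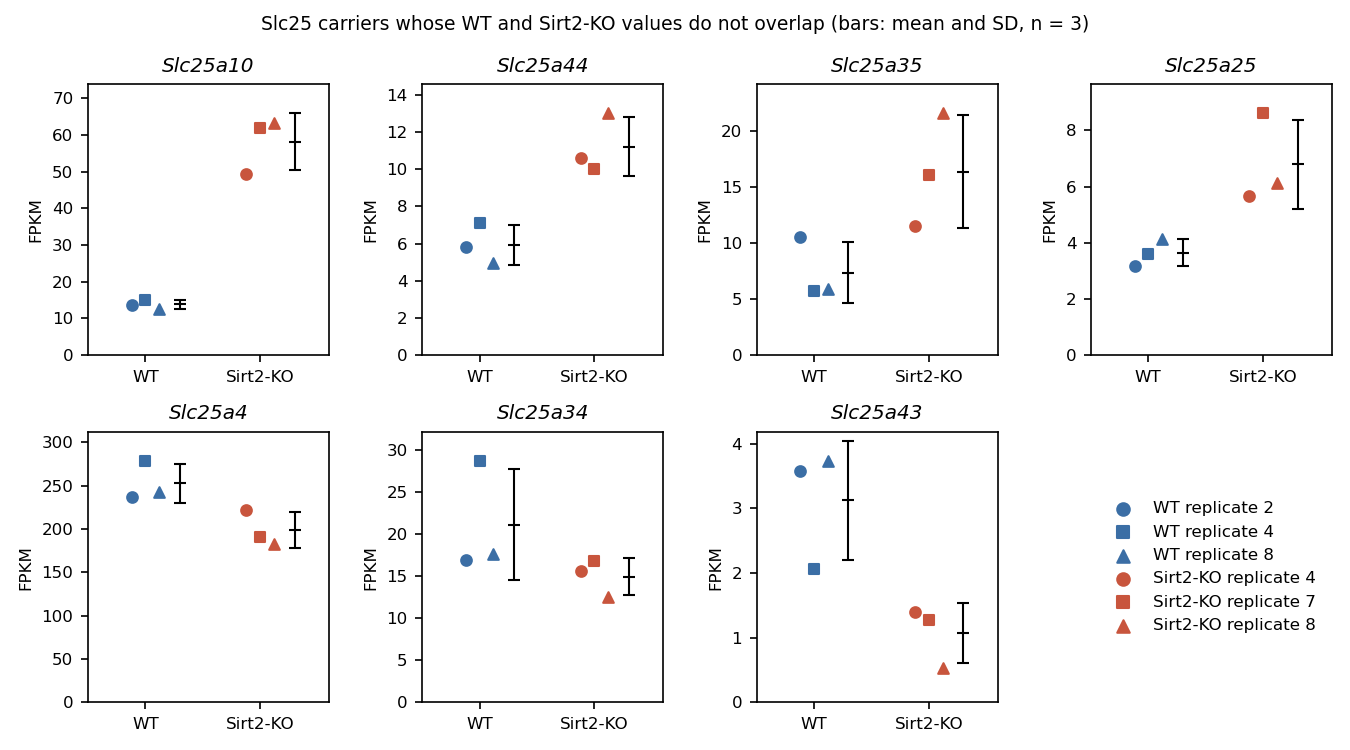
FPKM of the 7 Slc25 carriers whose 3 WT (blue) and 3 Sirt2-KO (red) values do not overlap; symbols are single aortas, and bars are the mean and SD of 3 mice. Slc25a10 is the only one of the 7 past the threshold, at 12.5 to 15.2 FPKM in WT, against 49.3 to 63.2 FPKM in Sirt2-KO.

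The other amino acid carriers did not pass. Slc25a29, a carrier of basic amino acids, had a log2 difference of -0.45 (adjusted p = 0.241), and Slc25a38, which brings glycine into mitochondria for haem synthesis, one of -0.48 (adjusted p = 0.250). Slc25a38 was at 13.6 to 16.0 FPKM in the WT aortas, against 6.95 to 14.4 FPKM in Sirt2-KO. Its smaller row, at 2.86 to 3.33 FPKM in WT and 0.918 to 1.93 FPKM in Sirt2-KO, reached the least listed variance of 1 only through the difference between the groups. With only the larger row the log2 difference of Slc25a38 was -0.35 (adjusted p = 0.444 by limma). For Slc25a12, an aspartate and glutamate exchanger of the malate-aspartate shuttle, the levels were 6.13 to 8.56 FPKM in WT, against 4.97 to 6.62 FPKM in Sirt2-KO. The glutamate carrier Slc25a22 was at 10.7 to 14.8 FPKM in the WT aortas, against 13.7 to 19.5 FPKM in Sirt2-KO. Each of these 4 overlapped between the groups, and none passed.

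The carriers of ATP and phosphate made up most of the summed level of the family. Slc25a4, the ADP/ATP carrier of heart and muscle, stood at 237, 279 and 242 FPKM in the WT aortas and 222, 191 and 183 FPKM in Sirt2-KO. The groups did not overlap, but the log2 difference of -0.35 (SE 0.137, 95% interval -0.67 to -0.02) missed the threshold (adjusted p = 0.182 by limma). WT replicate 4 had the highest Slc25a4. That aorta also had the highest sum of heart and skeletal muscle markers, with 486 FPKM over 8 markers against 64.6 to 72.4 FPKM in the other 5 aortas. The markers differed in this: Myh6 was at 84.7 FPKM there and at 0.094 to 5.62 FPKM elsewhere. Acta1 was at 5.01 FPKM there and at 5.24 FPKM in WT replicate 2. By mean log2 level all 8 (of 10 listed) were lower in Sirt2-KO and 1, Ryr2, passed by limma. Outside WT replicate 4 the sums overlapped, at 70.9 and 64.6 FPKM in WT replicates 2 and 8, against 72.4, 68.1 and 71.8 FPKM in Sirt2-KO. Myl7, of the heart atria, was at 0 in WT replicate 8. Without WT replicate 4 the difference of Slc25a4 was -0.28 (adjusted p = 0.297). Smooth muscle markers summed to 15190, 9194 and 17209 FPKM in the WT aortas, against 14119, 9962 and 7753 FPKM in Sirt2-KO. All 10 were lower and 0 passed by limma, with 3 at an unadjusted p under 0.05, which 24.8% of all tested genes reached. The part of either muscle in the values of Slc25a4 was not tested.

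Slc25a5, the ADP/ATP carrier found in most tissues, stood at 168, 156 and 119 FPKM in the WT aortas and 116, 129 and 154 FPKM in Sirt2-KO. The groups overlapped, with a log2 difference of -0.15 (95% interval -0.56 to 0.27, adjusted p = 0.606). Its values are uncertain, since 7 pseudogenes in GENCODE share at least 300 bases of its transcript at 90% identity or more, up to 98.3%. The ratio of Slc25a4 to Slc25a5 in FPKM was 1.41, 1.79 and 2.03 in WT and 1.92, 1.47 and 1.19 in Sirt2-KO. Slc25a4 was the higher of the 2 in all 6 aortas, and the ratio did not differ beyond its spread (log2 difference -0.20, exact two-sided permutation p = 0.5).

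Slc25a3, which imports phosphate for the ATP synthase, did not pass. It stood at 183, 227 and 177 FPKM in the WT aortas, against 199, 176 and 179 FPKM in Sirt2-KO. The groups overlapped, and the 95% interval of the log2 difference ran from -0.41 to 0.26 (difference -0.08, adjusted p = 0.740). Together Slc25a3, Slc25a4 and Slc25a5 made up 62.1%, 62.7% and 63.7% of the family's summed FPKM in the WT aortas and 56.8%, 55.9% and 52.3% in Sirt2-KO. With Slc25a10 left out of the sum the shares were 63.0%, 63.6% and 64.6% in WT and 59.9%, 60.1% and 55.9% in Sirt2-KO. The groups lay apart in both versions, and no test was made of a sum over members. The family as a whole summed to 946, 1056 and 846 FPKM in the WT aortas, against 946, 888 and 987 FPKM in Sirt2-KO, which overlapped.

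A further 3 members exchange ATP-Mg for phosphate, and so set the adenine nucleotide pool of the matrix. The groups lay apart in 1 of these 3, Slc25a25, which is close to the 33.3% of all tested genes. Slc25a25 stood at 3.19, 3.59 and 4.15 FPKM in the WT aortas and 5.65, 8.60 and 6.12 FPKM in Sirt2-KO. The log2 difference was 0.73 (SE 0.208, adjusted p = 0.105 by limma), and each of its 2 rows overlapped between the groups when taken alone. Slc25a25 shares up to 379 exon bases with Naif1 on the opposite strand. Reads of these 2 genes cannot be told apart without a stated strand setting. Slc25a23 was the most abundant of the 3 and overlapped between the groups, at 46.7, 38.3 and 54.8 FPKM in the WT aortas, against 49.4, 44.3 and 43.5 FPKM in Sirt2-KO. Its 95% interval for the log2 difference was -0.37 to 0.35. Slc25a24 was at 10.7 to 11.7 FPKM in WT, against 8.15 to 10.9 FPKM in Sirt2-KO.

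**Figure D3:**
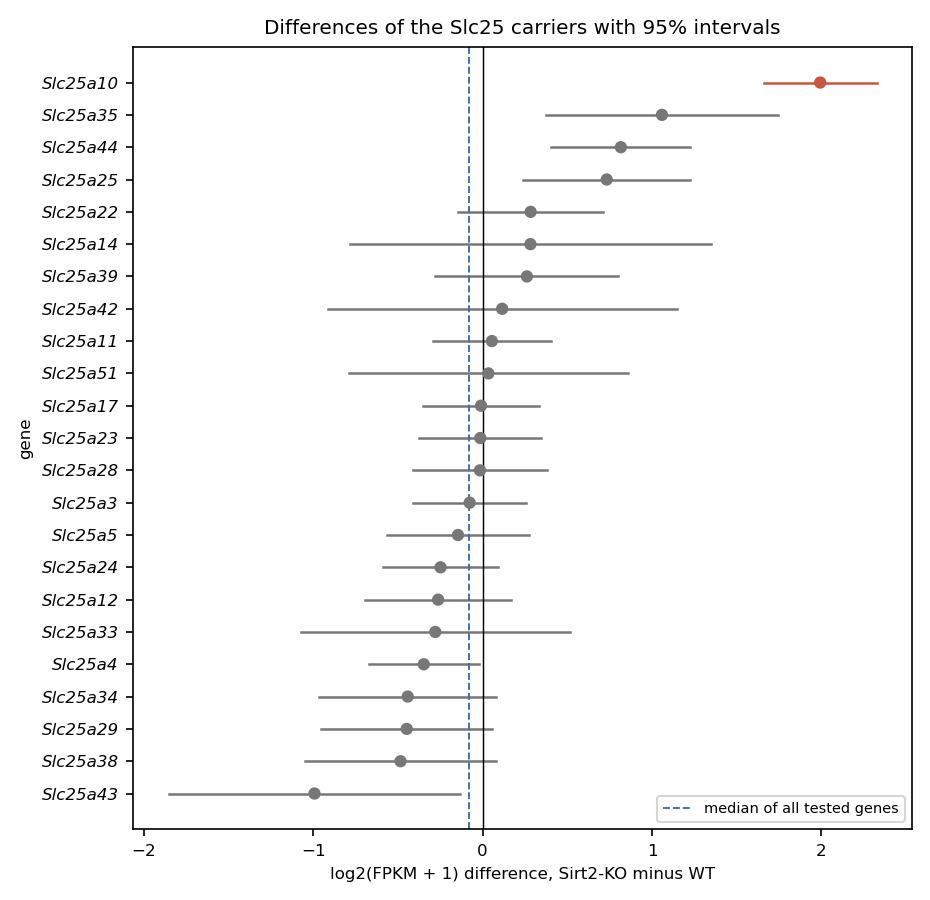
Log2(FPKM + 1) difference of 23 Slc25 carriers, Sirt2-KO minus WT, with its 95% interval from limma (3 mice a group); red marks an adjusted p under 0.05 and the dashed line is the median of all tested genes (-0.08). Slc25a10 stands alone at 1.99, and the intervals of most others include 0.

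Members without an assigned substrate held both a large positive and the largest negative difference. Slc25a35 stood at 10.5, 5.69 and 5.91 FPKM in the WT aortas, against 11.5, 16.1 and 21.6 FPKM in Sirt2-KO. WT replicate 2 and Sirt2-KO replicate 4 were close to each other, and the log2 difference was 1.06 (SE 0.289, adjusted p = 0.0973 by limma). Slc25a35 shares up to 545 exon bases with Rangrf on the opposite strand. Rangrf had a log2 difference of -0.40 (adjusted p = 0.274). Without a stated strand setting reads of Slc25a35 and Rangrf cannot be told apart.

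Slc25a43 stood at 3.58, 2.06 and 3.74 FPKM in the WT aortas and 1.40, 1.28 and 0.539 FPKM in Sirt2-KO. The log2 difference was -0.99 (SE 0.365, adjusted p = 0.160), at a level where the pseudocount of 1 understates the change. The groups of Slc25a43 did not overlap. Its SD was 0.926 FPKM in WT and 0.465 FPKM in Sirt2-KO, so its row reached the table's least variance of 1 only through the difference between the groups. Slc25a34 stood at 17.0, 28.8 and 17.7 FPKM in the WT aortas, against 15.6, 16.8 and 12.5 FPKM in Sirt2-KO. WT replicate 4 was the highest here as well, and the other 2 WT aortas were just above the highest Sirt2-KO aorta (log2 difference -0.44, adjusted p = 0.257).

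Cofactor, nucleotide, iron and glutathione carriers overlapped between the groups, and 0 of these 7 members passed by limma, nor had any an unadjusted p under 0.05. The glutathione carrier Slc25a39 stood at 79.2, 90.2 and 55.7 FPKM in the WT aortas and 84.5, 72.8 and 112 FPKM in Sirt2-KO. Slc25a17, a peroxisomal carrier of cofactors, was at 19.1 to 26.6 FPKM in the WT aortas, against 22.2 to 23.9 FPKM in Sirt2-KO. The NAD carrier Slc25a51 was at 11.1 to 20.4 FPKM in the WT aortas, against 9.22 to 23.8 FPKM in Sirt2-KO, and 1 pseudogene matches it at 93.4% identity. The coenzyme A carrier Slc25a42 was at 2.51 to 8.11 FPKM in WT, against 4.25 to 9.77 FPKM in Sirt2-KO. The pyrimidine nucleotide carrier Slc25a33 (3.25 to 9.19 FPKM over all 6 aortas) and the iron importer Slc25a28 (13.7 to 19.6 FPKM) belong to these groups too. Slc25a14, a relative of the uncoupling proteins and among the lowest of the family, was at 0.581 to 2.92 FPKM in the WT aortas, against 1.78 to 3.60 FPKM in Sirt2-KO.

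The order of the aortas within each group was counted over the carriers. These counts were not set beside those of all tested genes, so they may hold for the whole sample and not for carriers alone. WT replicate 8 was the lowest WT aorta for 13 of the 24 members, and WT replicate 4 the highest for 14. Sirt2-KO replicate 8 was the highest of its group for 12. For Slc25a42 the 3 WT values were 8.11, 7.70 and 2.51 FPKM, with replicate 8 the low one. The summed level of 8 brown adipocyte markers (of 10 listed) was 1134, 1101 and 126 FPKM in the WT aortas and 499, 544 and 1061 FPKM in Sirt2-KO, none of them at 0 in any aorta. Replicate 8 was thus the lowest WT aorta and the highest Sirt2-KO aorta in brown fat markers as well. Without WT replicate 8 the log2 difference of Slc25a42 turned from 0.12 to -0.33 and did not pass. The difference of Slc25a42 was also below 0, at -0.19, without Sirt2-KO replicate 8. The part of brown fat in these values was not tested.

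**Figure D4:**
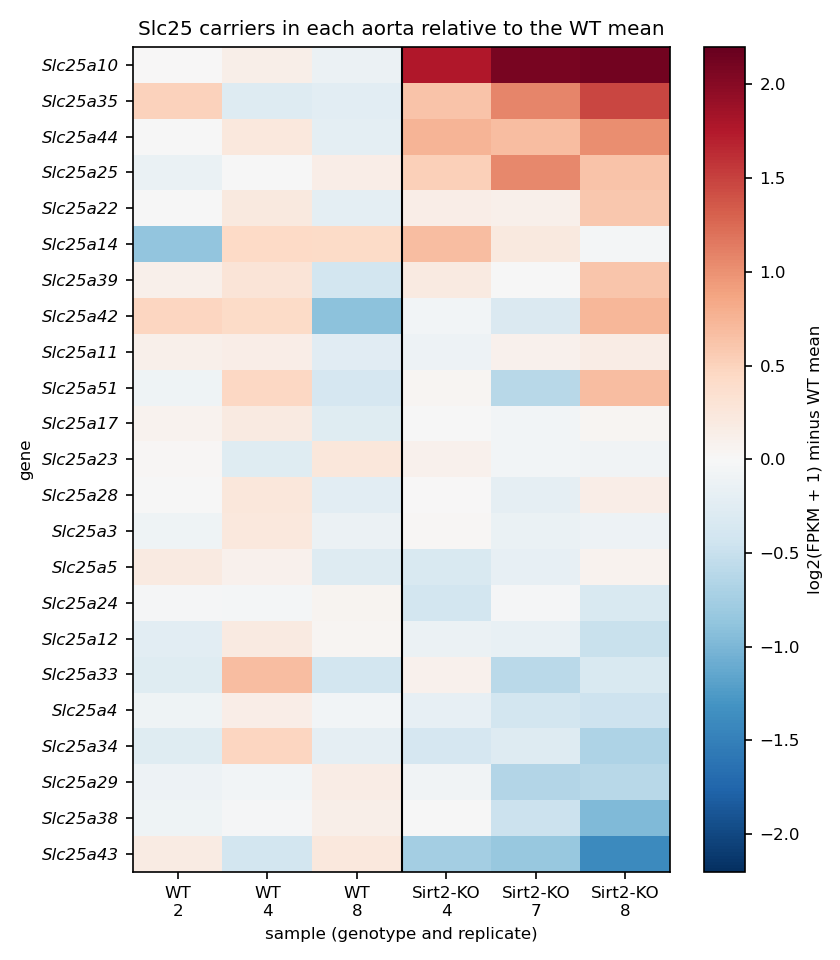
Log2(FPKM + 1) of 23 Slc25 carriers in each aorta minus their mean over the 3 WT aortas; columns are samples and carriers are ordered by their Sirt2-KO minus WT difference, red above and blue below the WT mean. Slc25a10 is above the WT mean in all 3 Sirt2-KO aortas, while WT replicate 8 is the lowest WT aorta for 12 of these 23 carriers.

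Other transport genes of the mitochondrial membranes gave a similar count. Of 40 genes in a list of pyruvate carriers, sideroflexins, calcium and ABC transporters, channels, protein import subunits and Slc25 relatives under other names, 30 were tested, 1 rose and 0 fell by limma. Their median log2 difference was 0.27, beside -0.08 over all tested genes, with 19 higher and 11 lower. An unadjusted p under 0.05 was reached by 5 higher and 1 lower. Of all tested genes 24.8% reached it, and 2.91% passed. The gene that rose was Sfxn1, the mitochondrial serine transporter, at 13.6, 14.7 and 11.2 FPKM in the WT aortas, against 32.5, 29.6 and 35.3 FPKM in Sirt2-KO (log2 difference 1.25, adjusted p = 0.0108). Mpc1, a subunit of the pyruvate carrier, stood at 99.8, 84.6 and 56.3 FPKM in the WT aortas and 130.03, 121 and 147 FPKM in Sirt2-KO, and its difference of 0.75 missed the threshold (adjusted p = 0.106). Of 16 ATP synthase genes, which ADP, ATP and phosphate carriers serve, 0 passed by limma, with a median difference of 0.06 and 1 at an unadjusted p under 0.05. That gene was Atpif1, an inhibitor of the enzyme, at 90.8, 98.96 and 107.7 FPKM in WT, against 87.0, 69.95 and 41.5 FPKM in Sirt2-KO (log2 difference -0.64, adjusted p = 0.191). The next smallest p was that of the subunit gene Atp5o (log2 difference 0.39, adjusted p = 0.312).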

How the data were processed

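RNA of 6 aortas was sequenced, 1 mouse a sample, and groups and replicate numbers were read from the sample titles. The authors deposited FPKM values (FPKM per the file headers). The submitters' processing notes list Bowtie 0.12.2 and mm9 without saying what for. How FPKM were estimated, with which gene models and filters, is not given in the sources used here. Dates replaced the names of 39 rows, which were left out, and rows of 1 name were summed. The 8605 genes averaging 1 FPKM or more were tested two-sided on log2(FPKM + 1) by limma 3.58.1 (R 4.3.3), using lmFit and a trended eBayes. No depth is known, so no counting interval is given. The steps were tested on simulated data. Members were named, with 1 of the 24 counted but not reported here by itself, giving values per sample for members past the threshold, those with the 2 smallest p in each direction, the 6 highest and those whose groups lay apart, and ranges otherwise. Slc25a11, Slc25a42 and Rangrf were given fuller values after these were seen. Exon overlaps and copies (blastn 2.17.0) came from GENCODE M21, read for names and overlaps alone. Members, substrate groups and lists were chosen with earlier results of these data known. Alternatives covered pseudocounts, filters, scaling, the highest row, the spread model, the replicate block and each mouse left out. Figures were drawn with matplotlib 3.10.9.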

Additional observations from a re-analysis of the deposited data

How the results depend on the processing

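Slc25a10 passed in 14 of 15 alternatives (adjusted p at most 0.0182 in these), and 0 members were called lower in any of them. The number of members called higher was 2 with quantile normalization, where Slc25a44 joined, and 1 to 2 with single aortas left out. All genes called numbered 151 when each gene was its highest row alone and 28 to 344 with single aortas left out, against 250. The lowest of these counts was without Sirt2-KO replicate 7; it was 29 without Sirt2-KO replicate 8, 71 without WT replicate 2 and 150 without WT replicate 8. With the replicate number as a block, 3 genes and 0 members were called and Slc25a10 differed by 1.94 (adjusted p = 0.158). Numbers 4 and 8 occur in both groups. Same-numbered samples did not deviate together from their group means (r = -0.05 and -0.45), while samples of unlike number gave r = 0.22 and 0.35. With so few pairs and 3 samples a group, these values cannot show whether same-numbered samples share more than a number. The median of the members lay between -0.14 and 0.10 without single aortas, and the Slc25a4 to Slc25a5 log2 ratio difference between -0.38 and -0.03.

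Of 358 member values under the alternatives, 328 kept direction and side of the threshold and 27 changed sign, in 10 members, none of them called. Signs turned with quantile normalization in Slc25a17 (0.0049) and Slc25a28 (0.023), with equal sums in Slc25a51 (-0.0057), and with the highest row in Slc25a14 (-0.39) and Slc25a22 (-0.064). With the block they turned in Slc25a14 (-0.12), Slc25a17 (0.052), Slc25a23 (0.017) and Slc25a28 (0.070). Leaving out single aortas gave ranges across 0 for Slc25a11 (-0.069 to 0.14), Slc25a14 (-0.15 to 0.50), Slc25a17 (-0.14 to 0.087), Slc25a23 (-0.14 to 0.11), Slc25a28 (-0.13 to 0.11), Slc25a3 (-0.14 to 0.036), Slc25a33 (-0.48 to 0.057), Slc25a42 (-0.33 to 0.36) and Slc25a51 (-0.29 to 0.36). The cause was not tested. Depth is unknown, so no limit that it sets can be given.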

Other observations

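Rows of one carrier did not always move together, and the table gives no transcript identifiers for them. Slc25a3 had 4 rows, and its highest row held 63.9%, 46.6% and 77.7% of the gene's sum in WT and 74.1%, 66.2% and 40.5% in Sirt2-KO. Another row of Slc25a3 stood at 55.2 FPKM in WT replicate 4, the aorta with the highest sum of heart and skeletal muscle markers, and at 10.3 to 27.0 FPKM in the other 5 aortas. Slc25a3 is known for a heart and muscle splice form, but which row holds it cannot be read from the table.

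Slc25a39 also had 4 rows. The highest stood at 24.7, 53.5 and 33.6 FPKM in the WT aortas, against 53.5, 48.5 and 65.6 FPKM in Sirt2-KO, while the next stood at 42.9, 27.7 and 19.4 FPKM and at 25.2, 20.8 and 44.5 FPKM. With only the highest row the log2 difference of Slc25a39 was 0.63, against 0.26 for the sum, and neither passed.

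Among the Slc25 relatives that carry other names, the uncoupling protein gene Ucp1 of brown fat stood at 475, 419 and 35.1 FPKM in the WT aortas and 107, 101.3 and 245 FPKM in Sirt2-KO. The groups overlapped (log2 difference -0.47, adjusted p = 0.770 by limma). Ucp3, the uncoupling protein of muscle and brown fat, was at 6.45, 4.38 and 0.514 FPKM in the WT aortas, against 5.05, 8.56 and 13.0 FPKM in Sirt2-KO, and Mtch2, an outer membrane relative, at 22.6 to 37.8 FPKM in WT, against 40.1 to 49.5 FPKM in Sirt2-KO (adjusted p = 0.249 and 0.181). WT replicate 8 was the lowest WT aorta for these 3 and for Ucp2 (11.5 FPKM). For Mtch1 the lowest was WT replicate 2, at 68.5 FPKM, against 74.6 FPKM in WT replicate 8. These genes were chosen after their values were seen.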
